A study of Mus musculus with 5 samples.

Results

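Solute carriers are the membrane proteins, grouped in the gene families Slc and Slco, that move amino acids, sugars, organic ions, metals, nucleotides and metabolites across cell and organelle membranes. The set described here held every array probe whose gene symbol began with Slc and a digit or with Slco, with Slc18a2 and Slc6a3 left out by rule. It comprised 284 of the 20355 probes on the array and 213 of the 9930 named genes. Families were assigned by symbol. Mitochondrial carriers (Slc25) had 33 probes, amino acid transporters 57, sugar transporters 22 and organic ion transporters (Slc22, Slco, Slc10 and Slc47) 27. The remaining 145 probes fell into smaller families. The symbol rule also takes in the adaptor genes Slc9a3r1, Slc9a3r2 and Slc4a1ap, which are named for the exchangers they bind.

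The mutant group was liver RNA of 5 male mice of the genotype Pitx3eyl-/-, 17 weeks old, 1 array per animal. Pitx3 encodes a homeodomain transcription factor known for its part in the lens and in midbrain dopamine neurons, and eyeless (eyl) is a mutant allele of it. The reference was an RNA pool of wild-type mice, from 4 animals according to the sample labels and from 6 according to the labelling protocol. Each 2-colour array carried 1 mutant RNA and the pool, after 20 µg of total RNA had been reverse-transcribed and labelled indirectly with Cy3 or Cy5. The mutant RNA was in Cy5 on replicates 1, 2 and 4 and in Cy3 on replicates 3 and 5. No wild-type animal was measured on its own, so the spread between wild-type livers is in no error given below. The genetic background of either group, like the sex and age of the pooled animals, is not given in the sources used here.

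In liver, solute carriers divide the work of exchange with blood and bile. Carriers of the basolateral membrane take up bile acids, drugs, amino acids, citrate and fatty acids from portal blood, and glucose leaves the cell by facilitated transport. Carriers of the inner mitochondrial membrane pass adenine nucleotides, citrate, dicarboxylates, aspartate, glutamate and ornithine between matrix and cytosol, and so link the urea cycle, gluconeogenesis and lipid synthesis.

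A value is the log2 ratio of the 2 channels of an array, and it is read as mutant over pool. This direction is likely but not known. A code for unmeasurable spots was positive on the Cy5 arrays and negative on the Cy3 arrays, from which all 5 arrays were read as running the same way, and the labels list the mutant as the first channel. Array medians over all measured probes were -0.19, -0.04, -0.00, 0.11 and 0.23 on replicates 1 to 5, and the solute carrier medians were -0.04, -0.04, 0.25, 0.05 and 0.10. The SD over probes of an array lay between 1.47 and 1.86 for solute carriers and between 1.51 and 1.72 for all probes. Missing values made up 19.4% to 29.6% of the solute carrier probes of an array, against 21.9% to 33.3% of all probes. Part of the values sat at ratios of small whole numbers (no larger than 20): 17.5% to 28% of the solute carrier values of an array, against 20.1% to 29.6% of all values. The number of arrays limits the precision, and nothing in the values gives the brightness of a spot. Ratios give no level, so the tissue label could not be checked by the presence of its markers. The hepatocyte marker genes had 7 tested probes, 4 with coefficients above 0 and 3 below and a median of 0.02. They ran from -1.55 ± 0.87 for Apoa1 to 1.13 ± 0.49 for Trf (SE), with albumin at -0.13 ± 0.26. Pitx3 itself had 0 probes, so the mutated gene was not checked.

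The first comparison asks which solute carrier transcripts differed between mutant livers and the wild-type pool. No difference passed correction for multiple testing. limma was fitted to all probes measured on 4 or 5 arrays that include both dye orientations. It called 0 of 172 solute carrier probes and 0 of 11300 probes in all (0%), and the lowest adjusted p was 0.9995. The fitted mutant coefficient is the mean log2 ratio with both dye orientations weighted equally. Where a probe has 1 array in an orientation, that array adds no spread to the SE. At an unadjusted p under 0.05 there were 3 solute carrier probes above 0 (Slc66a1, Slc6a17 and Slc31a1) and 2 below 0 (Slc22a16 and Slc35a5), or 2.91% of 172. Over all tested probes the share was 4.16%, with 2.35% above 0 and 1.81% below. Leaving out 1 array at a time gave 4 to 9 solute carrier probes above 0, with 9 without replicate 1 and 6 without replicate 3. Below 0 it gave 2 to 4, with 4 without replicate 4. The shares over all probes in these fits are not given here, so the counts are not read as particular to solute carriers. In all, 91 of the solute carrier coefficients lay above 0 and 81 below, with a median of 0.03, against 53.9% of all probes above 0 and a median of 0.04. Of the 213 genes, 142 had a tested probe. The 112 untested probes had values on too few arrays: 63 on 3, 34 on 2, 14 on 1, and 1 probe, for Slc6a16, on none.

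Slc66a1, the lysosomal exporter of cationic amino acids, had log2 ratios of 0.90, 1.29, 1.11, 1.69 and 0.73 on replicates 1 to 5. All 5 arrays lay above 0 in both dye orientations, with replicate 4 the highest. Its mutant coefficient was 1.11 ± 0.28 (SE, 5 arrays), with an unadjusted p of 0.00997 and a limma adjusted p of 0.9995. Slc6a17, a neutral amino acid transporter of neuronal vesicles, had 0.15, 0.02, 2.74, 1.84 and 1.69, so the first 2 replicates lay close to 0 and the other 3 well above it. Its coefficient was 1.44 ± 0.41, and a second probe for the same gene gave -0.06 ± 0.41. Its untested probe had 1.40, 3.07 and -0.68 on replicates 1, 4 and 5. Slc1a4, a transporter of alanine, serine and cysteine, had the smallest spread between arrays of the tested solute carrier probes (SD 0.14). Its ratios were -0.47, -0.52, -0.38, -0.77 and -0.54. All 5 arrays lay below 0 within a narrow band. Its coefficient was -0.52 ± 0.26, and its second probe, with values from -0.68 to 1.30 on 4 arrays, gave 0.50 ± 0.46.

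Of the 102 solute carrier probes measured on all 5 arrays, 8 (7.84%) had 1 sign throughout, 6 above 0 and 2 below, against 5.99% of all 6364 such probes (3.65% above and 2.34% below). Beside the 3 just given these were Slc36a1 and Slc36a2, proton-coupled amino acid transporters, Slc25a10, the mitochondrial dicarboxylate carrier, Slc13a3, a sodium-coupled dicarboxylate transporter, and Slc9a9, an endosomal sodium/proton exchanger. Slc36a1 ranged from 0.28 to 0.59 on 4 arrays and reached 2.85 on replicate 5, with a coefficient of 1.02 ± 0.44. One array thus stood far above the others, and without it the coefficient was 0.38. A further, untested probe of Slc36a1 had 0.48, -1.797 and -0.91 on replicates 1, 3 and 5. Slc25a10 lay between 0.23 and 1.17, with a coefficient of 0.55 ± 0.28. Slc9a9 lay between -0.88 and -0.04, with a coefficient of -0.57 ± 0.26 and a limma adjusted p of 0.9995. Its other probe had 0.74, -3.56, -0.46, 1.39 and 0.90, above 0 on 3 of 5 arrays, with a coefficient of -0.13 ± 0.82.

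Pitx proteins bind the sequence TAATCC, which reads GGATTA on the other strand, and the promoters in the RefSeq table for GRCm38.p6 were searched for it on both strands, over 250 bases before to 50 bases after each start. The motif was present for 16 of 167 solute carrier genes with a promoter in the table (9.58%), against 2199 of 27025 genes in all (8.14%). Of the 9 genes with 1 sign and the lowest unadjusted p that had a promoter in the table, 0 held it. Among tested solute carrier genes the motif was present for 11, of which 8 had a mean coefficient above 0 and 3 below (median 0.27), against 50 above and 52 below among the 102 genes without it (median -0.02). These are descriptions of letters in a window and no test was made. The promoters of 3 genes are shown, each 5′ to 3′ along the gene's own strand with the motif in capitals. The first belongs to Slc13a5, the citrate transporter of the liver cell membrane, at chr11:72267112-72267411 on the minus strand, where the motif begins 233 bases before the start. The second belongs to Slc26a1, a sulfate and oxalate exchanger, at chr5:108675316-108675615 on the minus strand, which holds the motif at 2 positions. The last belongs to Slc66a1, at chr4:139310659-139310958 on the minus strand, and holds none; it is shown because this gene had the lowest unadjusted p of the set.
Slc13a5: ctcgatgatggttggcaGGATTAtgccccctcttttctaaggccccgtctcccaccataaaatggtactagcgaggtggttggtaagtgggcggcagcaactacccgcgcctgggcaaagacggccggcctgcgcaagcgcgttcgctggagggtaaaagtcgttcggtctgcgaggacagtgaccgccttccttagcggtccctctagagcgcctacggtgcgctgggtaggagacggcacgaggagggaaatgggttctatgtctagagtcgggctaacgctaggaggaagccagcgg
Slc26a1: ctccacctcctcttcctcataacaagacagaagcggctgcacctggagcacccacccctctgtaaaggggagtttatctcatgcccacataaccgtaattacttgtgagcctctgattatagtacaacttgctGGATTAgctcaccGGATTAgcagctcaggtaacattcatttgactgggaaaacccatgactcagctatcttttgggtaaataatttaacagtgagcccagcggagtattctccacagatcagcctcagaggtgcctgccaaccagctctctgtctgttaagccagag
Slc66a1: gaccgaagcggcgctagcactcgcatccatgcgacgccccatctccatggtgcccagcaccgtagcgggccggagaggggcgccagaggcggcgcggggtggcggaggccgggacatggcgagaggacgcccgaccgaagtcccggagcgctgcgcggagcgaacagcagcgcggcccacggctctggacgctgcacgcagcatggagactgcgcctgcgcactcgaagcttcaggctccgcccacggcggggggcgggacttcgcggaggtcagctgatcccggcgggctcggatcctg
The Slc13a5 probe had ratios of 1.36, -0.05, 0.41, -0.05 and 1.69, with 2 arrays at 0 and 2 well above it, and a coefficient of 0.73 ± 0.39. Slc26a1 had ratios between -0.40 and 0.42 and a coefficient of 0.10 ± 0.28, with a 95% interval from -0.61 to 0.81.

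The second comparison sets the 4 main families beside each other on each array. Mitochondrial carriers had medians of 0.26, 0.11, -0.14, -0.23 and -0.19 on replicates 1 to 5, above the array's own median on replicates 1 and 2 and below it on replicates 3, 4 and 5. On replicate 2 the median was -0.24 over probes measured on all 5 arrays and -0.13 without values at ratios of small whole numbers (a setting added after seeing the data), both below the array median. Amino acid transporters had medians of -0.20, 0.03, 0.05, 0.29 and 0.24 and lay between -0.01 and 0.18 relative to the array median. Over probes measured on all 5 arrays the medians were 0.16 on replicate 1 and -0.0895 on replicate 4, each on the other side of 0. Sugar transporters had medians of -0.25, -0.31, -0.14, -0.51 and 0.42, below the array median on all arrays but replicate 5. Organic ion transporters had medians of -0.71, 0.40, 0.37, 0.01 and 0.00, with replicate 1 low and replicates 2 and 3 high. Relative to the array median, the family medians averaged -0.06 ± 0.36 for mitochondrial carriers, 0.06 ± 0.07 for amino acid transporters, -0.18 ± 0.30 for sugar transporters and -0.01 ± 0.41 for organic ion transporters (SD, 5 arrays each). Each of these 4 averages was smaller than its SD between arrays, which is not the error of an average. The amino acid family lay above the array median on 4 arrays, and no test was made. The sugar family has the fewest values, 14 to 16 on an array, and over the 3 probes measured on all 5 arrays its median was -0.91 on replicate 1 and 0.90 on replicate 2.

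**Figure D1:**
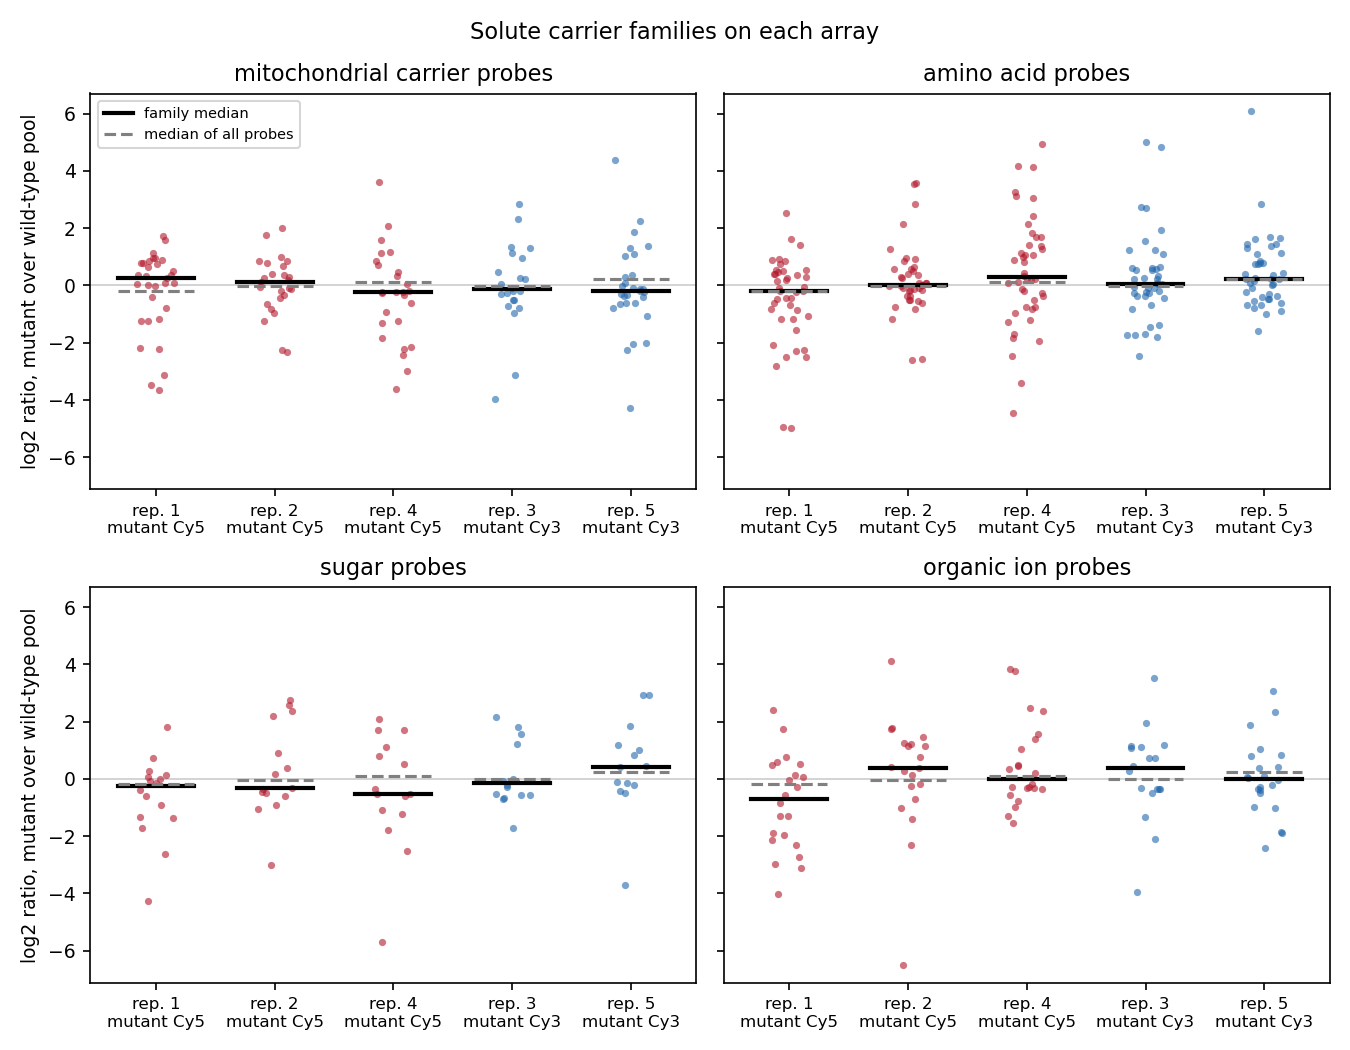
Log2 ratios of mutant over wild-type pool (vertical axis) for each measured probe of the mitochondrial carrier, amino acid, sugar and organic ion families, by array, with arrays grouped by the dye of the mutant RNA (red Cy5, blue Cy3), black bars for family medians and dashed lines for the median of all probes of the array. Family medians lie between -0.63 and 0.45 relative to the array median, while single probes range from -6.49 to 6.08.

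Of the 23 tested mitochondrial carrier probes, 6 had coefficients above 0 and 17 below, with a median of -0.15, against 53.9% above 0 over all probes. None was under an unadjusted p of 0.05. Slc25a5, which exchanges ADP for ATP across the inner membrane, had ratios of 0.37, -0.10, -0.73, 0.06 and -0.63. The Cy3 arrays were the lowest and the Cy5 arrays lay around 0. The coefficient was -0.29 ± 0.26, with a 95% interval from -0.95 to 0.38. Slc25a13, the aspartate/glutamate carrier of liver, had -0.45, -0.50, -0.22 and -0.61 on replicates 2 to 5 and 0.77 on replicate 1, which stood apart. Its coefficient was -0.26 ± 0.31. Slc25a1, the citrate exporter that feeds fatty acid synthesis, had -2.19, 1.13, -0.22 and -0.78 on replicates 1, 3, 4 and 5 and a coded value on replicate 2, and its coefficient was -0.51 ± 0.56. Slc25a47, an orphan carrier of hepatocytes, lay between -0.38 and 0.95, with a coefficient of 0.23 ± 0.35. Both probes of Slc25a10 were above 0, at 0.55 ± 0.28 and 0.23 ± 0.47. Slc25a25, a carrier of ATP-magnesium and phosphate, spanned -3.15 to 4.39 over 4 arrays, with a coefficient of -0.46 ± 1.33.

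The lowest mitochondrial carrier coefficients belonged to Slc25a16 (-1.44 ± 0.90), Slc25a12 (-0.86 ± 0.54), the aspartate/glutamate carrier of brain and muscle, and 1 of the 2 probes of Slc25a44 (-0.76 ± 0.73). Slc25a44, which imports branched-chain amino acids into mitochondria, had 1 array that set the value of this probe. The probe had 0.09, 0.20, 0.46 and 0.87 on replicates 1 to 4 and -4.29 on replicate 5, and without replicate 5 its coefficient was 0.42. Its other probe lay between -0.32 and 0.05 on all 5 arrays (SD 0.16), with a coefficient of -0.15 ± 0.26. The highest coefficients were those of Slc25a45 (0.60 ± 0.57), Slc25a10 and Slc25a33 (0.37 ± 0.36), a pyrimidine nucleotide carrier. Slc25a11, the oxoglutarate carrier of the malate-aspartate shuttle, lay between -0.24 and 0.26, with a coefficient of -0.11 ± 0.26. Slc25a23, an ATP-magnesium and phosphate carrier, had -0.07 ± 0.27.

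Of the 32 tested amino acid transporter probes, 20 had coefficients above 0 and 12 below, with a median of 0.15. Slc38a3, the system N carrier that moves glutamine in liver, had ratios of 0.30, -0.38, -0.10, 0.17 and 0.39. Slc38a4, a system A carrier abundant in hepatocytes, had 0.41, -0.13, -0.04, -0.27 and -0.42. Both had arrays on either side of 0, and neither gene had an array far from the others. The coefficients were 0.09 ± 0.28 for Slc38a3 and -0.11 ± 0.28 for Slc38a4, with 95% intervals from -0.63 to 0.80 and from -0.82 to 0.59. Slc38a2, the system A carrier that responds to amino acid shortage, had 0.92, 0.38, -1.69, -1.71 and 0.04, and its coefficient was -0.48 ± 0.53. An untested probe of Slc38a2 had -4.985, 2.86 and -1.47 on replicates 1 to 3. The heavy chains that bring light-chain transporters to the membrane had coefficients of -0.36 ± 0.37 (Slc3a2) and 0.06 ± 0.33 (Slc3a1). An untested probe of Slc3a1 had -2.47, 1.27 and -0.28 on replicates 3, 4 and 5.

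Slc1a2, the glutamate transporter of pericentral hepatocytes and astrocytes, had 3 tested probes, with coefficients of 0.02 ± 0.31, 0.30 ± 0.35 and 0.75 ± 0.69. The last had ratios of 0.36, 0.07, -0.28 and 0.23 on replicates 1, 2, 3 and 5 and 4.15 on replicate 4. A further probe of the gene, measured on 3 arrays, had 4.16 on the same replicate, -0.53 on replicate 2 and 0.56 on replicate 3. The other tested probe measured on replicate 4 had -0.13 there. The highest coefficients of the family were those of Slc38a5, 1 probe of Slc6a17 (given above) and Slc38a9. Slc38a5, a glutamine carrier, had ratios of 0.03, 5.01, 1.38 and 1.36 on replicates 2 to 5 and a coefficient of 1.95 ± 0.74. Replicate 2 was thus close to 0 and replicate 3 far above the others. Leaving out 1 array gave Slc38a5 coefficients from 1.035 to 2.86. Slc38a9, the lysosomal arginine sensor, had a coefficient of 1.41 ± 1.70, with 4 array values from -2.27 to 6.08. On the low side, Slc7a7, which exports cationic amino acids, had -0.67 ± 0.54. Slc38a7, a lysosomal glutamine exporter, had -0.66 ± 0.86, and Slc7a5, the large neutral amino acid exchanger, -0.64 ± 0.45. A second probe of Slc38a7 had a coefficient of 0.87 ± 0.72, and the first had one of 0.17 without replicate 4. Leaving out 1 array gave Slc38a9 coefficients from -0.54 to 3.36. The limma adjusted p was 0.9995 for each of these probes.

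Of the 12 tested sugar transporter probes, 7 had coefficients above 0 and 5 below, with a median of 0.05. The glucose exporter of the hepatocyte, Slc2a2, had values on 3 arrays, -0.59, -1.73 and 2.11 on replicates 2, 3 and 4, and was not tested. Slc37a4, which carries glucose 6-phosphate into the endoplasmic reticulum, had -0.28 and -1.78 on replicates 3 and 4. Slc37a4 was not tested either. Slc2a8, an intracellular hexose transporter, had -0.02, -0.31, -0.54 and -0.16 on replicates 1, 2, 3 and 5, all below 0, with a coefficient of -0.26 ± 0.32. Slc5a1, the sodium-coupled glucose transporter of intestine, lay between -0.23 and 0.17, with a coefficient of -0.10 ± 0.31. The highest coefficient was that of Slc37a1, a sugar phosphate exchanger (1.10 ± 0.73). Its ratios were -2.62 and -0.61 on replicates 1 and 4 and 2.18 to 2.92 on the other 3. An untested probe of Slc37a1 had 0.06, -0.50 and -0.08 on replicates 1 to 3. Slc37a3 had 0.63 ± 0.64 and Slc2a6, a lysosomal hexose transporter, 0.31 ± 0.43. The 3 tested probes of Slc37a2 had coefficients of -0.18 ± 0.48, 0.05 ± 0.34 and 0.13 ± 0.39, and its untested probe had 1.81, -0.34 and 1.23 on replicates 1 to 3. Slc5a11, an inositol transporter, had -0.47 ± 0.80.

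Of the 17 tested organic ion transporter probes, 8 had coefficients above 0 and 9 below, with a median of -0.03. Slco2b1, an uptake carrier for steroid sulfates and drugs, had 2 probes. One had ratios of 0.76, -0.17, 0.28, -0.35 and 0.12 and the other -0.84, 0.12, 0.73, -0.33 and 0.37. The probes were alike in their coefficients, 0.14 ± 0.30 and 0.10 ± 0.29, though they lay on opposite sides of 0 on replicates 1 and 2. Slc22a5, the carnitine transporter, had -0.04, 0.27, -0.33, -0.97 and 0.06, with a coefficient of -0.19 ± 0.32 and a 95% interval from -0.99 to 0.61. Slc22a7, an organic anion transporter of liver, had -4.03, -6.49 and -0.78 on the Cy5 arrays and 1.96 and 3.07 on the Cy3 arrays. The orientations did not overlap, and the mutant coefficient was -0.62 ± 0.86. No probe named for the bile acid importer Slc10a1 or for Slco1a1, Slco1a4 or Slco1b2 was analysed here.

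Slc22a16, a carnitine transporter known from human testis, was below 0 on all 4 arrays that measured 1 of its probes, at -1.88, -1.41, -2.09 and -0.32. Replicate 4 was the closest to 0, and replicate 3 was the only Cy3 array of this probe. The coefficient was -1.65 ± 0.48, with an unadjusted p of 0.0237 and a limma adjusted p of 0.9995. Its other tested probe had 0.15, -2.31, -0.35, -1.54 and -0.29, with a coefficient of -0.77 ± 0.44. A further, untested probe of the gene had 1.25, -0.34 and 3.84 on replicates 2, 3 and 4, so it lay above 0 on 2 of its 3 arrays. Slc22a14 had -0.86 ± 0.70. On the other side were Slc22a23 (0.99 ± 0.78), Slco4a1, a thyroid hormone carrier (0.92 ± 0.78), and Slco1c1, known for thyroxine uptake at the brain barrier (0.79 ± 0.56). For Slco4a1, replicate 2 had 4.13 and the other 4 arrays lay between -0.57 and 0.79.

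**Figure D2:**
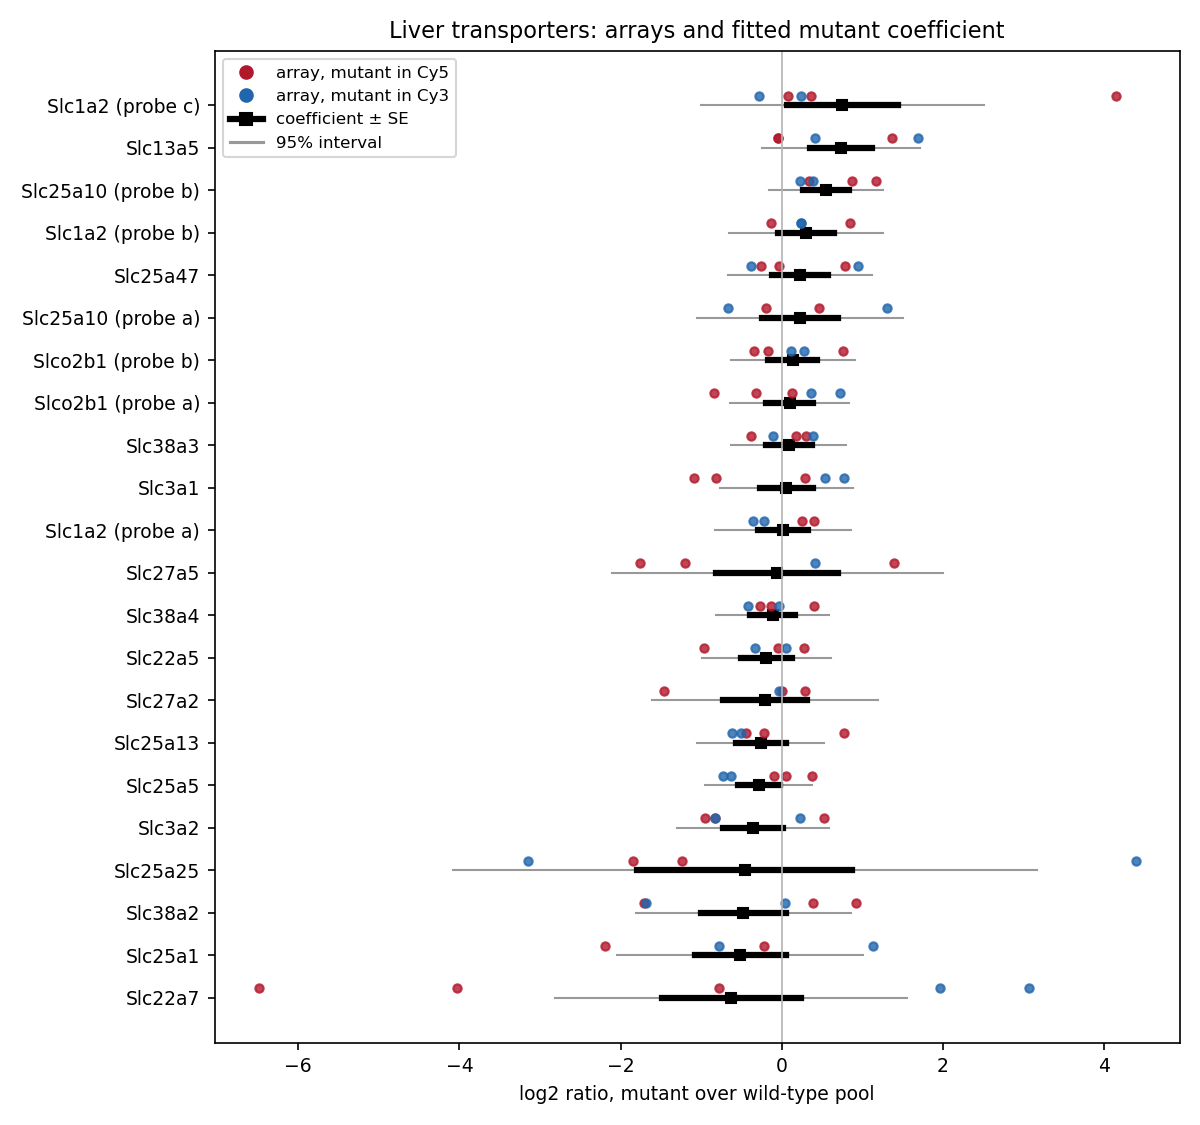
Log2 ratios of mutant over wild-type pool (horizontal axis) for the 22 tested probes of the liver transporter list, with array values as dots (red, mutant in Cy5; blue, mutant in Cy3), the fitted coefficient as a square, its SE as a thick bar and its 95% interval as a thin line. Coefficients run from -0.62 for Slc22a7 to 0.75 for 1 probe of Slc1a2, and each 95% interval includes 0.

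The liver transporter list, 40 genes with known roles in hepatocytes, had a probe for 25 genes and a tested probe for 18. Its 22 tested probes had coefficients above 0 in 11 cases and below 0 in 11, with a median of -0.02. The median SD between arrays was 0.65 for these probes, against 1.07 for the 150 other tested solute carrier probes and 0.98 for all tested probes. For 8 of the 22 (36.4%) the 95% interval lay within 1 log2 unit of 0, that is within a 2-fold difference, against 20.3% of the 172 solute carrier probes and 21.3% of all tested probes. The 8 were the tested probes of Slc1a2 (1 of 3), Slc38a3, Slc38a4, Slc3a1, Slc25a5 and Slc22a5 and both of Slco2b1. The fatty acid carriers and bile acid ligase had wider intervals: Slc27a2 had a coefficient of -0.21 ± 0.52 and Slc27a5 of -0.06 ± 0.76. Since whole liver was measured, fewer cells of a type and less RNA per cell cannot be told apart for any of these values.

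Of all tested probes 53.9% had coefficients above 0. Among the smaller families, all 6 tested monocarboxylate transporter probes, of 8 in the family, had coefficients above 0, with a median of 0.63. They belonged to 4 genes, Slc16a3, a lactate exporter of glycolytic cells, Slc16a6, known in zebrafish as a ketone body exporter of liver, Slc16a8 and Slc16a9. One Slc16a3 probe had 0.35, 0.93, 0.02 and -0.88 on replicates 1 to 4 and 6.56 on replicate 5, with a coefficient of 1.71 ± 0.99. The other had -1.775, 0.25 and -2.54 on the Cy5 arrays and 2.32 and 2.18 on the Cy3 arrays, with a coefficient of 0.45 ± 0.48. On single arrays, the family medians fell on both sides of the array median, from -0.998 on replicate 4 to 0.65 on replicate 3 relative to it. Slc16a1, the main lactate carrier of liver, was measured on 1 array, at -2.25 on replicate 5, and not tested. The untested Slc16a11 probe had 0.61, -0.49 and -1.25 on replicates 1, 2 and 5. The 3 tested fatty acid carrier probes, of 5 in the family, had coefficients below 0, with a median of -0.21. The tested Slc27a4 probe had -2.50 and -0.99 on replicates 4 and 5, where an untested one had 3.36 and 3.16. The untested Slc27a1 probe had -0.78, 0.10 and -4.08 on replicates 1, 3 and 4.

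Inorganic ion and acid-base transporters had 7 coefficients above 0 and 13 below (median -0.29), nucleotide sugar transporters 7 and 6 (median 0.03) and metal ion transporters 9 and 6 (median 0.09). Slc31a1, the copper importer, had 2 probes. One had 0.18, -1.69, 4.18 and -0.51 on replicates 1 to 4, with 1 array far above the others and a coefficient of 1.75 ± 0.52. That array, replicate 3, was the only Cy3 array of the probe, so its SE holds no spread between Cy3 arrays. The other had 0.26, -0.50, -0.24, 0.02 and -0.58, with a coefficient of -0.24 ± 0.28. Slc35a5, a member of the nucleotide sugar transporter family, had -1.95, -2.74, 0.36 and -0.74 on replicates 1, 2, 3 and 5 for 1 probe (coefficient -1.27 ± 0.39), while its other probe had a coefficient of 1.14 ± 1.04. Nucleoside transporters had the smallest median SD between arrays of the families, 0.42 over 4 tested probes. The tested probe of Slc29a1, the equilibrative nucleoside transporter, lay between -0.39 and 0.40, with a coefficient of -0.02 ± 0.28. An untested probe of Slc29a1 had -1.05, 2.36 and -0.96 on replicates 3, 4 and 5. Slc14a1, a urea transporter, had coefficients of 0.93 ± 0.35, 0.17 ± 0.36 and -0.21 ± 0.48 for its 3 probes.

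The same fit estimates a dye coefficient, the mean of the Cy5 arrays minus that of the Cy3 arrays (named for the dye of the mutant RNA), divided by 2. For solute carriers 1 probe lay above 0 and 17 (9.88%) below 0 at an unadjusted p under 0.05, against 168 (1.49%) and 666 (5.89%) of all 11300 probes, together 7.38%. With values required on all 5 arrays, the solute carrier counts were 2 above 0 and 5 below of 102 probes. The share over all probes under that filter is not given here. Whether solute carriers differed from all probes there cannot be told. After correction limma called 0 probes (0%), and the lowest adjusted p was 0.429. Slc6a6, the taurine transporter, had -2.97, -2.59 and -2.89 on the Cy5 arrays and 2.54 on the 1 Cy3 array that measured it. Slc25a30, a kidney mitochondrial carrier, had -3.66, -2.32 and -1.25 on the Cy5 arrays and 2.33 and 2.26 on the Cy3 arrays. In both the orientations lay on opposite sides of 0, and the mutant coefficients were near 0, at -0.14 ± 0.36 and -0.06 ± 0.42. The dye coefficients were -2.67 ± 0.36 for Slc6a6, -2.35 ± 0.42 for Slc25a30 and -2.46 ± 0.48 for 1 probe of Slc14a1. Slc12a9 was the 1 probe above 0 at this threshold, with a dye coefficient of 2.03 ± 0.74 and a mutant coefficient of -0.76 ± 0.74. Next on that side by unadjusted p were Slc30a2, a zinc transporter (0.63 ± 0.27), and Slc25a29, a mitochondrial carrier of basic amino acids (0.97 ± 0.44), with mutant coefficients of 0.42 ± 0.27 and -0.11 ± 0.44. Among the 5 probes with an unadjusted p under 0.05 for the mutant coefficient, Slc31a1 and Slc35a5 also had one for the dye, at -2.43 ± 0.52 and -1.08 ± 0.39.

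**Figure D3:**
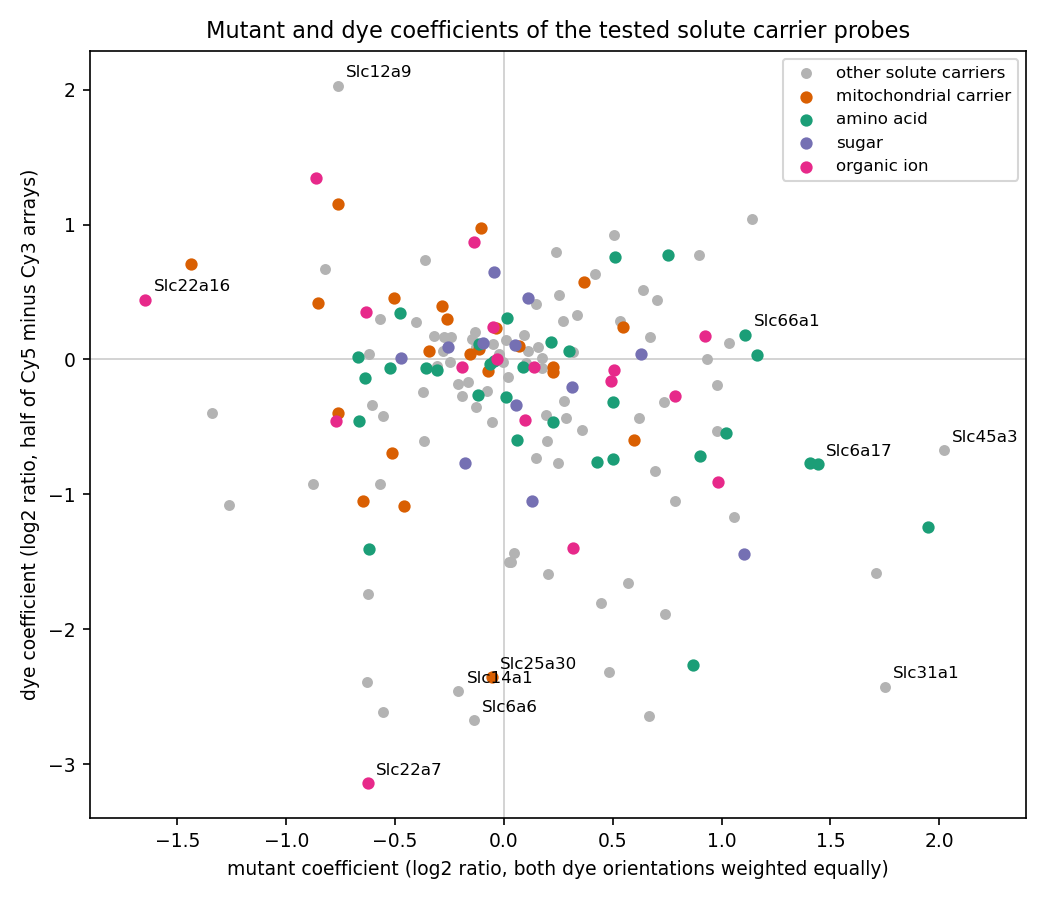
Mutant coefficient (horizontal axis, log2) against dye coefficient (vertical axis, log2) for the 172 tested solute carrier probes, with the 4 main families in colour. Mutant coefficients run from -1.65 for Slc22a16 to 2.02 for Slc45a3, and dye coefficients from -3.14 for Slc22a7 to 2.03 for Slc12a9.

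Where a gene had several tested probes, their coefficients were close to uncorrelated. The Pearson correlation over pairs of probes was -0.002 for solute carriers and 0.004 for all named genes. The coefficient of 1 probe can thus not be read as that of its gene. Over 26 solute carrier genes with 34 pairs of tested probes, 18 pairs (52.9%) had coefficients of the same sign, against 51.6% of 1777 pairs over all named genes. The median difference between the coefficients of a pair, regardless of sign, was 0.578 for solute carriers and 0.524 for all named genes. Slco2b1, Slc25a10, Slc22a16 and Slc16a3 (1.71 and 0.45) had pairs of the same sign. Slc35a5 (1.14 and -1.27), Slc31a1 (-0.24 and 1.75), Slc1a4 (-0.52 and 0.50) and Slc6a17 (1.44 and -0.06) had pairs of opposite sign. Whether each name sits on its own row could be checked for sets only: the 58 ribosomal protein probes had a median SD between arrays of 0.586, against 0.696 to 0.917 for rows shifted by up to 6 places.

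**Figure D4:**
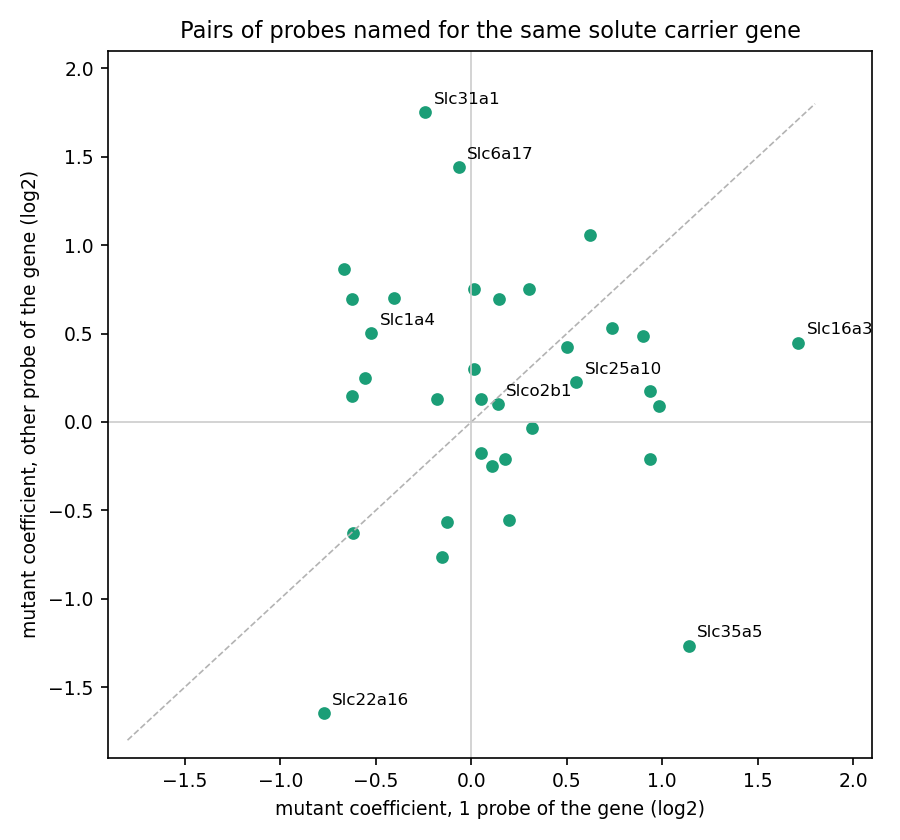
Mutant coefficients (log2) of 2 probes named for the same solute carrier gene, for 34 pairs of 26 genes, with the dashed line marking equal values. Points lie in all 4 quadrants, 18 pairs with the same sign, and Slc35a5 is farthest from the line with 1.14 and -1.27.

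The ATP-driven bile and drug exporters and the nuclear receptors that regulate hepatic transport were read beside the solute carriers. Of 20 genes listed, 11 had a probe and 8 a tested one. Of their 9 tested probes, 3 had coefficients above 0 and 6 below, with a median of -0.06, and 0 had an unadjusted p under 0.05 (limma called 0). Abcb11, the bile salt export pump, had 0.94, -0.04, -0.59, -0.32 and 0.10, with a coefficient of -0.03 ± 0.33. Nr1h4, the bile acid receptor, had a coefficient of 0.40 ± 0.40. Markers of other cells that liver tissue could hold had 0 probes under an unadjusted p of 0.05. All 6 erythroid probes, 5 of them of the gene Hba-a1, had coefficients above 0 (median 0.22), as had all 4 bile duct probes (median 0.77) and both lymphocyte probes (median 1.15). All 3 macrophage probes (median -0.24), both endothelial probes (median -0.46) and both stellate probes (median -0.35) lay below 0. Brain markers had 2 above 0 and 2 below (median -0.12), and the 1 kidney probe had -0.08. Whether the share of these cells bears on any solute carrier value was not tested.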

How the data were processed

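The deposited values are log2 ratios of 5 two-channel arrays, and per the labels each array carried 1 mutant liver RNA and the wild-type pool. The log2 scale was read from the deposited values, and what was done before (scanner, background correction, normalization) is not given in the sources used here. Values over 12 in absolute size, 788 in all and 7 among solute carriers, were read as codes and set to missing. Of the probes, 14030 carried 1 gene symbol in the platform annotation, 5 carried several and 6320 are unnamed here. All 284 member probes matched the GRCm38.p6 gene table, which changed 0 symbols. Of the value columns, 0 were left unused.

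limma 3.58.1 in R 4.3.3 (lmFit and eBayes) fitted an intercept, the mutant coefficient, and a dye term to the 11300 probes measured on 4 or 5 arrays that include both orientations. The prior had 2.24 degrees of freedom and an SD of 0.847. The pool is 1 control sample, so ratios were tested against 0, and adjusted p-values are Benjamini-Hochberg values over all 11300 probes, with calls under 0.05. The fit was tested on simulated data. Tables and figures were made with Python 3.11.15, pandas 2.3.3, numpy 2.4.6 and matplotlib 3.10.9.

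The members, families and gene lists were chosen with earlier results of these data known. The text names every tested probe of a 40-gene liver transporter list and the 3 highest and 3 lowest coefficients of each main family. Among tested probes of 1 sign it names the 6 lowest unadjusted p above 0. Below 0 there were fewer than 6 such probes, and all are named. The 3 lowest dye p on each side and further probes of these genes were added, giving 64 probes in all. Slc31a1, Slc35a5, Slc36a2, Slc13a3, Slc26a1, Slc25a11, Slc25a23, Slc5a1, Slc29a1, Slc45a3, Slc27a1, Slc27a4 and the Slc16 genes fall outside this rule. Those genes were chosen after their values were seen. The alternatives were array centring, other filters, no dye term, turned swap arrays, a robust prior, kept codes, values at ratios of small whole numbers left out, genes averaged and each replicate left out. Leaving such ratios out of the family medians of single arrays was added after seeing the data.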

Additional observations from a re-analysis of the deposited data

Results flagged for a closer look

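Of the 64 solute carrier probes named by rule, 7 had 1 array that stood apart from the others by Dixon's criterion. Chance meets this criterion in about 1 of 20 groups taken without regard to their values. Many of the named probes were picked for extreme coefficients or low p, so the count cannot be set against that rate. The share over all tested probes is not given here. Slc6a6, measured on 4 arrays, had 2.54 on replicate 3, against -2.97 to -2.59 on the other arrays, which had the mutant in Cy5. The Slc38a7 probe had -4.46 on replicate 4, against -0.47 to 0.92 on the others, and its coefficient of -0.66 was 0.17 without that array. Slc25a13 had 0.77 on replicate 1, against -0.61 to -0.22. Slco4a1 had 4.13 on replicate 2, against -0.57 to 0.79, and its coefficient of 0.92 was 0.16 without that array. Slc36a1 had 2.85 on replicate 5, against 0.28 to 0.59, and its coefficient of 1.02 was 0.38 without that array. One probe of Slc1a2 had 4.15 on replicate 4, against -0.28 to 0.36, and its coefficient of 0.75 was 0.10 without that array. One probe of Slc25a44 had -4.29 on replicate 5, against 0.09 to 0.87, and its coefficient of -0.76 was 0.42 without that array. The arrays standing apart were replicates 1, 2 and 3 once each and replicates 4 and 5 in 2 cases each. The causes were not tested.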

How the results depend on the processing

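No paired analysis was possible because the labels give 1 group, with every array against the same pool. Under each of the 14 alternatives limma called 0 solute carrier probes, as in the result reported. Leaving out 1 array at a time gave 0 to 0 calls, 4 to 9 probes above 0 and 2 to 4 below 0 at an unadjusted p under 0.05, and family medians of -0.19 to -0.10 (mitochondrial carrier), -0.01 to 0.22 (amino acid), -0.15 to 0.22 (sugar), -0.09 to 0.06 (organic ion) and 0.00 to 0.05 (all solute carriers). The count below 0 was 1 without a dye term, 1 without values at ratios of small whole numbers and 0 with probes of a gene averaged. Shares of all probes under an unadjusted p of 0.05 are not given here for the alternatives. The counts at that threshold in this section thus have no background beside them. With the swapped arrays turned, the mutant and dye coefficients trade places by construction, giving 1 probe above 0 and 17 below 0, a mitochondrial carrier median of 0.0745 and an amino acid median of -0.11. With values required on all 5 arrays, fewer probes were tested and the dye counts were 2 above 0 and 5 below 0. On single arrays, centring gave -0.42 for mitochondrial carriers and 0.0085 for amino acid transporters on replicate 5, by the shift itself. Probes measured on all 5 arrays gave -0.24 for mitochondrial carriers on replicate 2, 0.16 and -0.0895 for amino acid transporters on replicates 1 and 4, and -0.91, 0.90 and 0.84 for sugar transporters on replicates 1, 2 and 5. Averaging probes of a gene gave 0.18 for sugar transporters on replicate 2. Leaving out values at ratios of small whole numbers, added after seeing the data, gave -0.13 for mitochondrial carriers on replicate 2 and -1.29 for organic ion transporters on replicate 1; the cause was not tested. Of the 64 named probes, 34 kept their sign under the 13 alternatives other than the turned arrays and 15 under all 14, as far as each gave a value. Without values at ratios of small whole numbers, only 35 of the 64 could be tested. Such ratios were 3 of the 5 values of the Slc9a9 probe with 1 sign and 3 of the 4 of Slc25a1. They were 2 of the 4 values of the Slc22a16 probe with 1 sign, and 0 of the 5 of Slc66a1 and of the Slc6a17 probe with 1 sign. The limits are 5 arrays, an unknown normalization, no spot brightness and a pool with no spread of its own.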
